A study of Mus musculus with 16 samples.

Results

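The genes described are those of the cytosolic ribosomal proteins. They were taken by symbol from the RefSeq protein-coding genes of chromosomes 1 to 19 (Rpl or Rps with digits and an optional a, x or l, together with Rplp0, Rplp1, Rplp2 and Rpsa). The rule found 77 genes of 20665. Of these, 40 encode proteins of the large subunit, 29 of the small subunit and 3 of the stalk that carries the P proteins, and 5 have symbols ending in l, which marks a copy of another ribosomal protein gene (Rpl3l, Rpl10l, Rpl39l, Rps27l and Rpl32l). The rule uses symbols and positions only.

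Peaks of H3K27ac and H3K4me3 were compared in late 2-cell mouse embryos, 36 h after fertilization, mapped by ULI-NChIP-seq, a form of chromatin immunoprecipitation for few cells that uses no crosslinking. Control embryos had received H2O as zygotes, and mutant embryos had received Hdac1 mutant mRNA at the same stage. The labels do not name the mutation, the strain or the number of embryos, and the embryo's own Hdac1 gene was not described as altered in either group. There were 16 libraries in 8 groups of 2, an immunoprecipitation and an input group for each mark and condition, and 1 peak list stood for each immunoprecipitation group. The values thus carry no replicate error, the sequencing depth is unknown, and the conditions could not be tested against each other. Differences between the lists are descriptions.

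Ribosomal proteins join with ribosomal RNA to form the subunits that decode mRNA and make the peptide bond. Their genes are short, compact and among the most strongly transcribed in growing cells, and most of their products are needed in equal number. Many of their transcripts begin at a C within a run of pyrimidines, the terminal oligopyrimidine tract, through which mTOR signalling controls their translation. In the mouse, the late 2-cell stage is when the major wave of zygotic transcription begins, and the embryo begins to make ribosomes of its own. H3K27ac is an acetylation found at active promoters and enhancers, H3K4me3 is a methylation found mainly at promoters, and Hdac1 encodes a deacetylase that removes acetyl groups from histones.

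Across chromosomes 1 to 19, the H3K27ac lists held 73320 control and 114737 mutant peaks over 241.8 and 237.2 Mb, and the H3K4me3 lists held 83220 and 83290 peaks over 246.7 and 272.9 Mb. The mutant H3K27ac list thus spread a similar length over more peaks, and its part in the results below was not tested. Of 10 genes typical of the 2-cell stage, all 10 had H3K27ac peaks in both lists, and 8 had H3K4me3 peaks in the control list (not Zscan4c and Zscan4f) and 9 in the mutant list (not Obox3). Of 6 markers of cumulus and granulosa cells, which can adhere to embryos, 1 had an H3K27ac peak in the control list and 3 in the mutant list, and 4 and 6 had an H3K4me3 peak. Has2, Inha and Ptx3 had an H3K27ac peak in the mutant list alone, and Tnfaip6 in the control list alone. Fshr and Cyp19a1 had an H3K4me3 peak in the mutant list alone and no H3K27ac peak in either list. Whether adhering cells had a part in the results was not tested.

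A gene was counted as marked when a peak overlapped, by at least 1 bp, a window of 2 kb on each side of either annotated end. In the short ribosomal protein genes these windows often met, and in 49 of the 77 genes they formed 1 stretch that held the whole gene. In control embryos all 77 genes carried both marks. For H3K27ac the share among all protein-coding genes was 56.3%, for H3K4me3 it was 76.4%, and for both marks together it was 52.4%. In the mutant lists 65 genes (84.4%) had an H3K27ac peak, against 59.3% of all genes, and 76 genes (98.7%) had an H3K4me3 peak, against 75.1% of all genes. Both marks were present at 65 genes, against 53.1% of all genes.

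The difference between conditions lay in how much of the windows the H3K27ac peaks covered. In the control list H3K27ac peaks covered 88.8% of the summed windows of the 77 genes, and in the mutant list 46.6%, a ratio of 0.525. The same sums over all protein-coding genes were 27% and 23.3%, a ratio of 0.863. H3K4me3 peaks covered 87.8% of the ribosomal protein gene windows in the control list and 87.0% in the mutant list, a ratio of 0.992, and over all genes 38.7% and 40.2%. H3K27ac coverage was thus lower in the mutant list while H3K4me3 coverage was nearly the same. The median gene had 100% of its windows under control H3K27ac peaks and 49.8% under mutant peaks, with 94.4% and 98.7% for H3K4me3.

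Gene by gene, H3K27ac coverage was lower in the mutant list at 67 genes, higher at 7 and equal at 3, with a median difference of -41.4 percentage points. For H3K4me3 it was lower at 28, higher at 28 and equal at 21. Over all 20665 genes H3K27ac coverage was lower at 7841, higher at 6751 and equal at 6073, and H3K4me3 coverage at 6754, 8922 and 4989, with a median difference of 0 for both marks. H3K27ac coverage was lower by 25 points or more at 46 genes (59.7%), against 17.7% of all genes, and higher by that much at 0 genes, against 11.3% of all genes. For H3K4me3, coverage was lower by that much at 7 genes (9.09%) and higher at 4 (5.19%), against 8.76% and 10.1% of all genes. These shares depend on the control coverage, because a gene under 25% cannot be lower by 25 points and a gene above 75% cannot be higher by as much. Among genes with at least 25% control coverage, H3K27ac was lower by 25 points or more at 46 of 76 ribosomal protein genes (60.5%), against 44.7% of all such genes. For H3K4me3 the numbers were 7 of 77 (9.09%), against 13.6%. Among genes with at most 75% control coverage, H3K27ac was higher by 25 points or more at 0 of 15, against 13.0%, and H3K4me3 at 4 of 13 (30.8%), against 11.7%. With control coverage taken into account, the share with lower H3K27ac coverage thus lay closer to the background than over all genes. At 47 of the 77 genes (61.0%) H3K27ac coverage was lower while H3K4me3 coverage was equal or higher, against 4573 of all 20665 genes (22.1%). The median control H3K27ac coverage over all genes was 6.80%, which leaves less room for lower values.

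**Figure D1:**
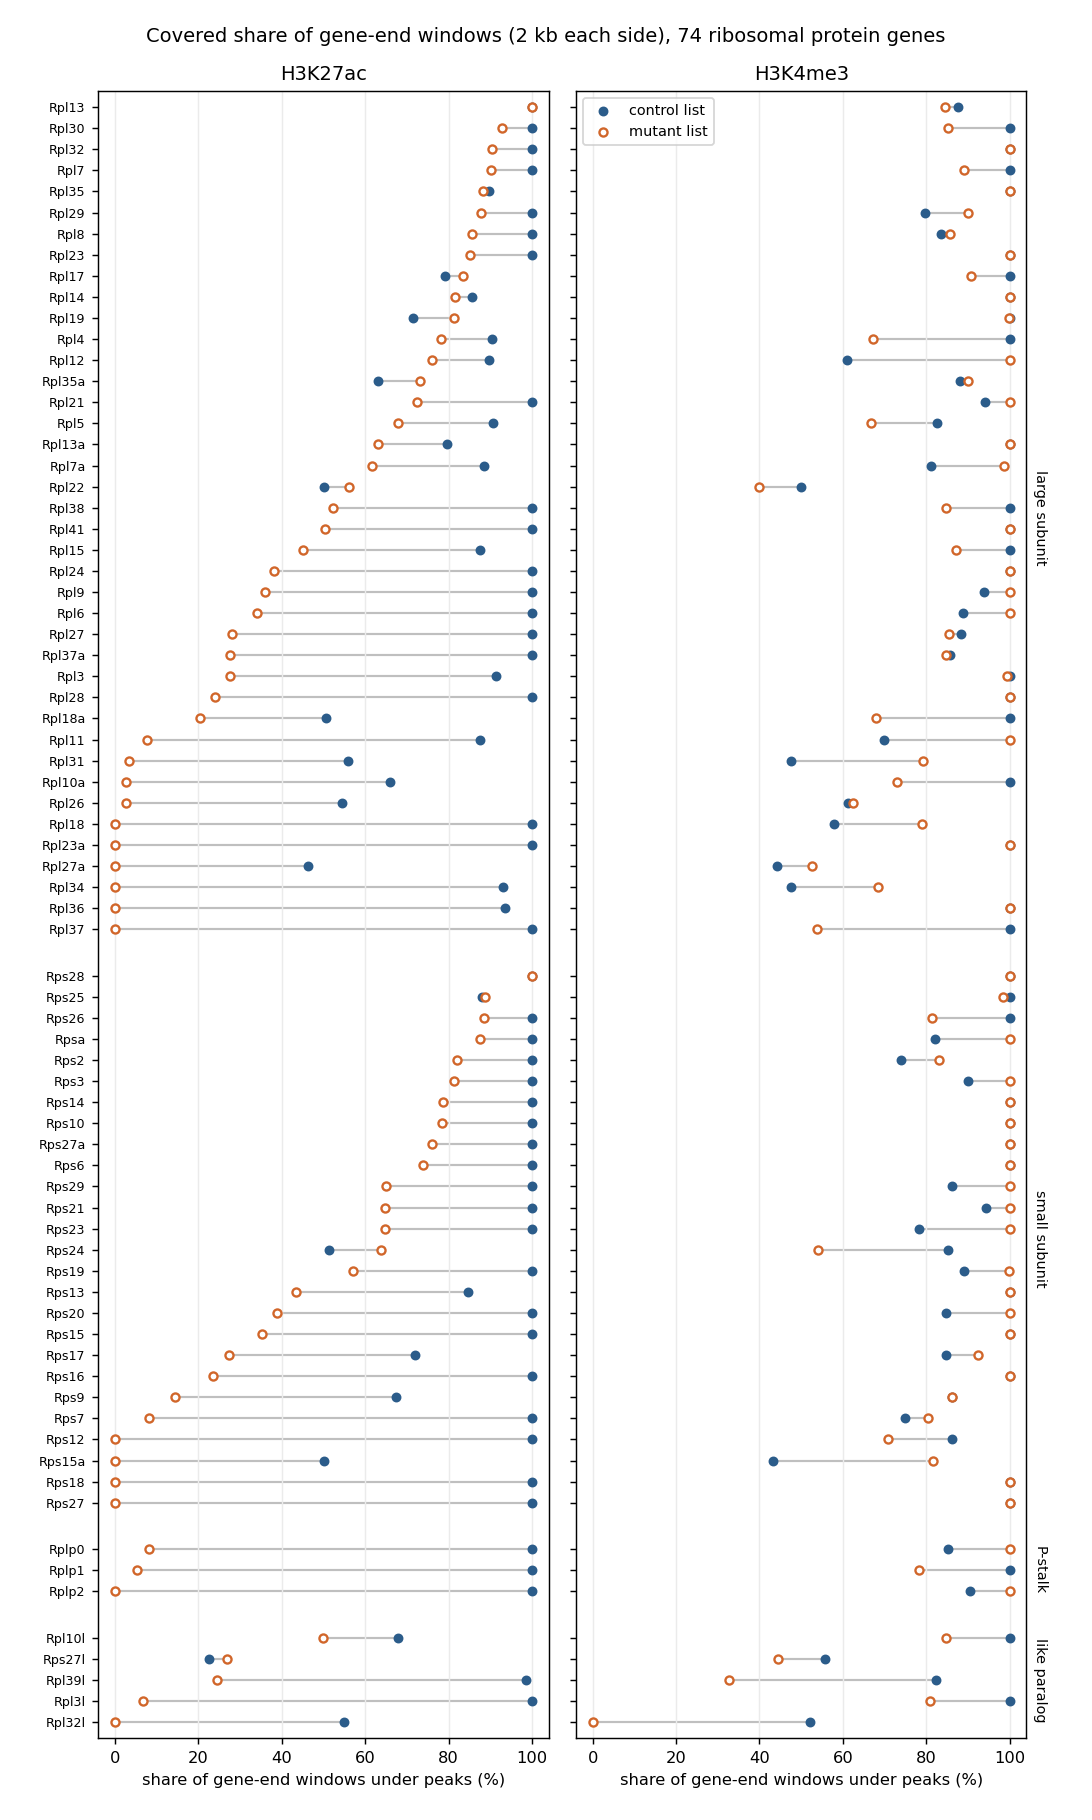
Share of each gene's windows (2 kb on each side of both gene ends) under peaks, in percent, for 74 ribosomal protein genes on the vertical axis, ordered by role and by mutant H3K27ac coverage, with the control list as filled points and the mutant list as open points. For H3K27ac the open point lies to the left at 65 of the genes plotted and at 0% at 12, whereas for H3K4me3 the open point lies to the left at 26 and to the right at 28.

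Nearly complete coverage of the windows, at least 90%, was common in control embryos. H3K27ac covered that much at 52 genes (67.5%), against 7.65% of all genes, and H3K4me3 at 43 genes (55.8%), against 6.72%. In the mutant lists the H3K27ac count was 6 genes (7.79%), against 3.68%, and the H3K4me3 count was again 43 (55.8%), against 8.46%. Rpl7, Rpl13, Rpl30, Rpl32 and Rps28 were among the 6 genes. Complete H3K27ac coverage was found at 45 genes in the control list and at 3 in the mutant list, among them Rpl13 and Rps28. Rps28, a small-subunit protein gene, was the 1 gene whose windows were fully covered in all 4 lists.

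The peaks over these genes were also narrower for H3K27ac. The median width of the widest peak at a gene was 18370 bp in the control list and 6768 bp in the mutant list, against 7669 and 4320 bp over all marked genes. For H3K4me3 it was 12690 and 11540 bp, against 5286 and 7093 bp over all marked genes. Among the 65 genes with an H3K27ac peak in both lists the widest peak was narrower by 2-fold or more at 43 (66.2%), against 41.0% of all such genes, and wider by 2-fold or more at 0, against 15.8%. The median ratio of mutant to control width was 0.403 over these genes. At other genes with at least 80% of their windows under control H3K27ac it was 0.421, with medians of 18500 and 8268 bp. The ribosomal protein genes of that class had 0.372, and translation initiation and elongation factor genes had 0.464. Narrower peaks were thus also found at other genes with high control coverage. Among the 76 genes with H3K4me3 in both lists the widest peak was narrower by 2-fold or more at 14 (18.4%), against 10.3%, and wider at 6 (7.89%), against 24.0%. Peaks over 10 kb lay at 66 genes in the control H3K27ac list and at 13 in the mutant list, and at 51 and 45 in the H3K4me3 lists. Over all genes the counts were 4768 and 2147 of 20665 for H3K27ac, and 3923 and 5197 for H3K4me3. Wide H3K4me3 peaks were thus more frequent in the mutant list over all genes and less frequent at the ribosomal protein genes. This contrast holds against all genes only. At other genes with at least 80% of their windows under both control marks, the median H3K4me3 width was also lower, 15610 bp in control and 13790 bp in mutant. Their median ratio of mutant to control width was 0.90, against 0.84 at the ribosomal protein genes of that class. Peaks over 10 kb were not counted in that class.

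The wide control H3K27ac peaks were often overlapped by several mutant peaks. The control peaks touching a gene's windows had a median total length of 20290 bp per gene. A median of 61.2% of that length was still under mutant H3K27ac peaks, and a median of 3 separate mutant peaks overlapped it. For all genes with a control peak the length was 9026 bp and the share still covered 44.2%, with a median of 1 mutant peak. At other genes with at least 80% of their windows under both control marks the length was 26450 bp and the share 62.45%. They also had a median of 3 mutant peaks, so the pattern was not particular to the ribosomal protein genes. Within the windows at the gene ends the median mutant coverage was 49.8%, as given above.

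**Figure D2:**
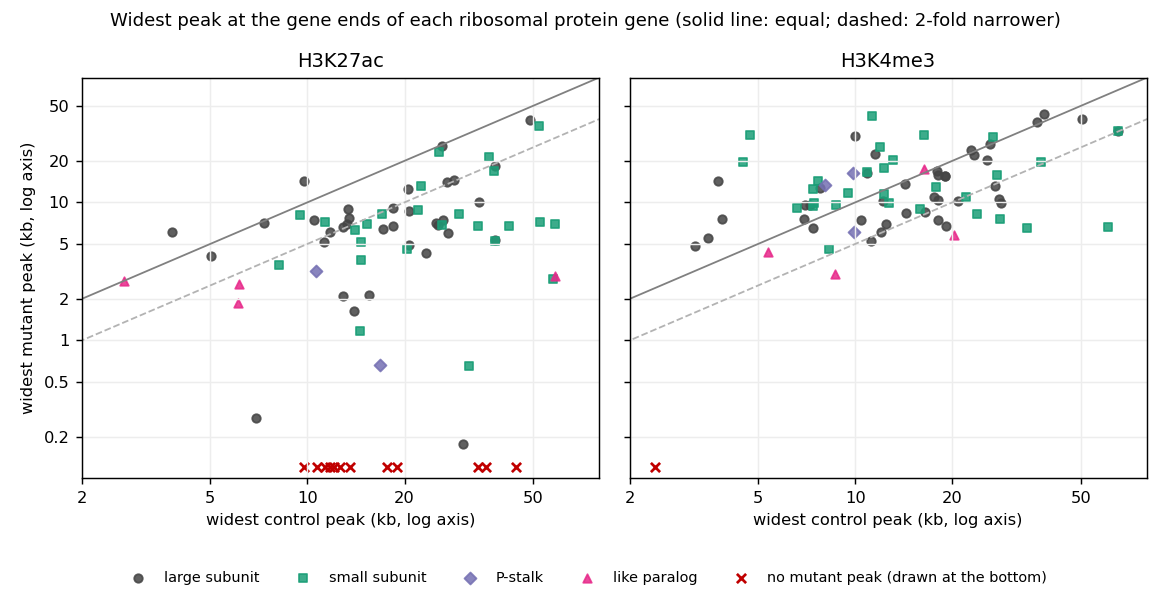
Width of the widest peak at each ribosomal protein gene, in kb on log axes, in the control list (horizontal) and the mutant list (vertical), with 1 point a gene marked by role, a solid line at equal width, a dashed line at a 2-fold narrower mutant peak, and crosses at the bottom for genes with no mutant peak. For H3K27ac 43 of 65 genes with a peak in both lists lie on or below the dashed line and 12 genes are crosses, whereas for H3K4me3 14 of 76 genes lie on or below it and 1 gene is a cross.

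The genes with no mutant H3K27ac peak in their windows numbered 12 of 77 (15.6%), against 22.6% of all genes with a control peak. This count depended on the settings: it was 17 with windows of 1 kb, 16 with lists of equal size or the wider 50% of each list, and 17 of 57 with windows at the start site only. The share over all genes was not computed under these settings, so the comparison with 22.6% holds for the main setting only. They were Rpl18, Rpl23a, Rpl27a, Rpl34, Rpl36 and Rpl37 of the large subunit, Rps12, Rps15a, Rps18 and Rps27 of the small subunit, the stalk gene Rplp2 and the copy Rpl32l. With every member marked in the control list, no gene could gain a peak of either mark, and the share gained among unmarked genes of the whole table was 35.9% for H3K27ac and 20.8% for H3K4me3. At 11 of the 12 genes the H3K4me3 peak was present in both lists. The exception was Rpl32l, the 1 gene of 77 (1.3%) that lacked H3K4me3 in the mutant list alone, against 8.14% of all genes with a control peak.

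Rps27 (chr3:90212667-90213648, GRCm38) encodes a zinc-finger protein of the small subunit. Its windows were fully covered by a control H3K27ac peak of 44231 bp, and no mutant H3K27ac peak reached them, the nearest lying 3818 bp from the gene. H3K4me3 covered 100% of the windows in both lists, with widest peaks of 16293 and 30844 bp. The acetylation peak was absent from the gene in the mutant list where the methylation peak was wider than in control. Rps18 (chr17:33951998-33955665), a protein of the small-subunit head, had 100% H3K27ac coverage in the control list (widest peak 18936 bp) and 0% in the mutant list. Its H3K4me3 coverage was 100% in both lists, with widest peaks of 23907 and 8304 bp.

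Rpl23a encodes a protein at the exit of the peptide tunnel, where the signal recognition particle binds. It had 100% H3K27ac coverage from a 33744 bp control peak and 0% in the mutant list, with H3K4me3 at 100% in both lists (26100 and 26384 bp). Rpl36, of the large subunit, went from 93.5% to 0% for H3K27ac and had 100% H3K4me3 coverage in both lists. Rpl37, a zinc-binding large-subunit protein, had 100% and 0% for H3K27ac, and its H3K4me3 coverage was 100% and 53.7%. Rpl37 was thus lower for both marks, whereas Rpl23a and Rpl36 were lower for H3K27ac with full H3K4me3 coverage. Rps12, of the small subunit, had 100% and 0% for H3K27ac and 86.1% and 70.7% for H3K4me3.

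At Rpl18, Rpl34, Rpl27a and Rps15a H3K4me3 coverage was higher in the mutant list. Rpl18 (chr7:45715467-45720835), of the large subunit, had H3K27ac coverage of 100% in the control list and 0% in the mutant list, and H3K4me3 coverage of 57.8% and 79.0%. Rpl34 had 93.0% and 0% for H3K27ac, and 47.5% and 68.5% for H3K4me3. For Rpl27a the values were 46.3% and 0%, and 44.3% and 52.5%, and for Rps15a 50% and 0%, and 43.2% and 81.6%. Rpl27a and Rps15a had the lowest control H3K27ac coverage of the 12 genes.

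The absence of a peak depended on the reach of the windows. The nearest mutant H3K27ac peak lay within 10 kb of the gene ends at 10 of the 12 genes, and beyond it at Rpl32l (12421 bp) and Rps15a (15781 bp). Just outside the windows were the mutant peaks nearest to Rpl37, at 2256 bp, Rpl36, at 2315 bp, and Rps12, at 2768 bp. Just inside was that of Rpl26, a peak of 6107 bp that covered 2.57% of the windows. Rpl10a had 2.73% coverage from a peak of 179 bp that lay wholly within its windows. With windows of 5 kb in place of 2 kb, 7 genes lacked a mutant peak. Besides the 12 genes at 0%, 8 genes had mutant H3K27ac coverage under 10%. Such low coverage was common over all genes, where the median mutant H3K27ac coverage was 8.76%.

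Values for the base at the annotated start of transcription came from RefSeq promoter sequences of GRCm38.p6, which matched 57 of the 77 genes. A control H3K27ac peak lay over the start of 56 of these genes (98.2%), and a mutant peak over that of 25 (43.9%). For all genes with a promoter entry the numbers were 5984 and 4747 of 16457 (36.4% and 28.8%). H3K4me3 peaks lay over the start of 57 genes in the control list and of 55 in the mutant list, the exceptions being Rpl32l and Rpl39l, against 67.7% and 64.4% of all genes. At most of these start sites the mutant lists therefore held H3K4me3, and at most they held no H3K27ac.

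The mutant H3K27ac profile of the ribosomal protein genes had its lowest value downstream of the start. At 1000 bp downstream 19 of 57 genes (33.3%) were under a mutant H3K27ac peak, and at the start 25 (43.9%). At 5000 bp downstream the share was 52.6% (30 genes), and at 5000 bp upstream 56.1% (32 genes). Since 45 of the 57 genes were shorter than 5000 bp, that downstream position lay beyond the gene at most of them. The highest share within 10 kb was 57.9% (33 genes), at 6500 bp upstream. The control shares were 98.2% at the start and at 1000 bp downstream, 100% at 500 bp downstream and 86.0% at 5000 bp upstream. The lowest mutant share thus lay where the control list covered nearly all of the genes. Over all protein-coding genes the mutant profile had its highest value near the start, at 29.8%.

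The profile was set beside that of other genes with at least 80% of their windows under both control marks, a choice made on control values in both sets. Among the 36 ribosomal protein genes in this class with a known start, mutant H3K27ac covered 41.7% at 10000 bp upstream, 50% at the start, 47.2% at 1000 bp downstream, 38.9% at 2000 bp and 58.3% at 5000 bp. Among 1019 other genes the shares at the same positions were 45.1%, 60.0%, 59.5%, 57.8% and 55.9%. Among the 580 of these no longer than the longest ribosomal protein gene, 11774 bp, they were 44.5%, 61.9%, 62.8%, 60.3% and 59.7%. At 2000 bp the ribosomal protein genes were thus lower than at the start by more than these sets were, whereas the spread of values over all positions was of like size. Translation factor genes, taken whatever their coverage, were also lower downstream, with 40% at 5000 bp upstream, 50% at the start, 37.5% at 1000 bp and 27.5% at both 2000 and 5000 bp downstream. Proteasome subunit genes had 41.9% at 5000 bp upstream, 45.2% at the start, 35.5% at 1000 bp downstream and 38.7% at 2000 and 5000 bp. A low downstream of the start was therefore not particular to the ribosomal protein genes, and none of these differences in shape was tested.

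**Figure D3:**
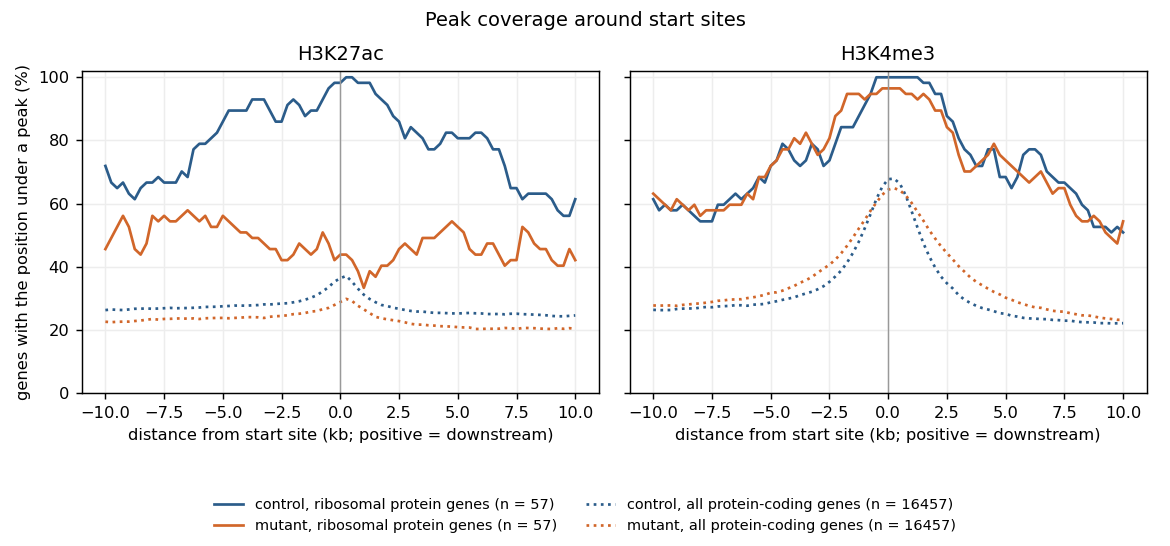
Share of genes with a position under a peak (vertical axis, percent) by distance from the start site (horizontal axis, kb, positive downstream), for 57 ribosomal protein genes (solid lines) and 16457 protein-coding genes (dotted lines), in the control and mutant lists of each mark. The solid mutant H3K27ac line has its lowest value, 33.3%, at 1000 bp downstream of the start, while both solid H3K4me3 lines lie above 94% there.

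The bases around the start are shown for the 10 genes without mutant H3K27ac that have a promoter entry, since these starts were covered by H3K27ac in the control list at all but Rpl32l. Each sequence is 30 bases long, 5′ to 3′ on the gene's strand, with 15 bases before the start and 15 from it, from RefSeq (GRCm38.p6). Capitals mark runs of at least 8 pyrimidines, which can begin or end outside the printed bases.
Rps27 (chr3:90213634-90213663, minus strand): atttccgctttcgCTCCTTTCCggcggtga
Rps18 (chr17:33955651-33955680, minus strand): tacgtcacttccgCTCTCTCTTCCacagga
Rps15a (chr7:118116133-118116162, minus strand): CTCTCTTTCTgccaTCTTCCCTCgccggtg
Rps12 (chr10:23787195-23787224, minus strand): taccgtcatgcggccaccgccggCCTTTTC
Rpl18 (chr7:45718056-45718085, plus strand): tgcgtctcgcaggccgCTCTTTCCCCgccc
Rpl27a (chr7:109519180-109519209, plus strand): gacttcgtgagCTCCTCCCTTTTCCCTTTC
Rpl34 (chr3:130730384-130730413, minus strand): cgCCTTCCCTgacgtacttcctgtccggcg
Rpl37 (chr15:5116598-5116627, plus strand): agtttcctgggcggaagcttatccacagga
Rplp2 (chr7:141447636-141447665, plus strand): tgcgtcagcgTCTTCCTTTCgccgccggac
Rpl32l (chr10:20208424-20208453, plus strand): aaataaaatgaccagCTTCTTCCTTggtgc
The next 6 are the genes with the highest mutant H3K27ac coverage among those with an entry, for comparison.
Rps28 (chr17:33824548-33824577, minus strand): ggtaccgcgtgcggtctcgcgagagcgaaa
Rpl13 (chr8:123102335-123102364, plus strand): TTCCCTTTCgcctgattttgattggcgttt
Rps25 (chr9:44407699-44407728, plus strand): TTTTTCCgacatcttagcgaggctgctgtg
Rps26 (chr10:128626492-128626521, minus strand): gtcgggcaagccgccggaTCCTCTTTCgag
Rpl35 (chr2:39005117-39005146, minus strand): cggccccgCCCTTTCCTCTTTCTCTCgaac
Rpsa (chr9:120127751-120127780, plus strand): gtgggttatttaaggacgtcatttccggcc

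A run of at least 8 pyrimidines on the gene's strand, within 20 bases of the start, was present at 29 of the 57 ribosomal protein genes (50.9%), against 20.5% of 16457 promoters. The 29 genes with a run had a median mutant H3K27ac coverage of 26.8%, 9 of them had no mutant H3K27ac peak, and 10 had one over the start. The 28 genes without a run had a median of 46.6%, 1 had no mutant peak (Rpl37), and 15 had a mutant peak over the start. The median control coverage was 90.4% with a run and 100% without. The run was also present at genes with high mutant coverage, among them Rpl35 and Rps26. These counts describe letters. The split was not made over all promoters, and no relation to acetylation was tested.

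Letters of other promoter elements were searched on both strands of the 300 bases around each start (250 before it and 50 after it). CCGGAAG, which ETS factors bind, was found in 23 of the 57 promoters (40.4%), against 12.2% of all promoters, and AANATGGCG, bound by YY1, in 5 (8.77%), against 3.30%. GGGCGG, bound by SP1, was in 32 (56.1%), against 47.3%, and TATAAA, the TATA box, in 4 (7.02%), against 13.5%. CCGGAAG was in 36.0% of the promoters with mutant H3K27ac over the start and in 43.8% of those without it. The median number of CpG dinucleotides was 21 per promoter, against 14 for all promoters, at a GC content of 57% and 56.7%. It was 18 in the 25 promoters with mutant H3K27ac over the start and 23 in the 32 without.

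Upstream sequence of 200 bases is shown for example genes with no or with high mutant H3K27ac coverage, to set these letters beside the values. Capitals mark CCGGAAG or AANATGGCG on either strand. Rps27 and Rps18 had 0% mutant H3K27ac coverage, Rps28 had 100%, and Rpsa had 87.5%, all with 100% in the control list.
Rps27 (chr3:90213649-90213848, minus strand): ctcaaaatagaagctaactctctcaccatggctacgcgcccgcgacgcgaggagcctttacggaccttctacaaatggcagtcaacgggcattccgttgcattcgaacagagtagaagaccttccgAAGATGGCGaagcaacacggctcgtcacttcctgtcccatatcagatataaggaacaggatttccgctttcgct
Rps18 (chr17:33955666-33955865, minus strand): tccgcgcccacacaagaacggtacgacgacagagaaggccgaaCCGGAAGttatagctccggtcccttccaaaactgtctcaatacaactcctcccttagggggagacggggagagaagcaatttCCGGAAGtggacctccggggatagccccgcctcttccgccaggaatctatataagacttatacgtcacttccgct
Rps28 (chr17:33824563-33824762, minus strand): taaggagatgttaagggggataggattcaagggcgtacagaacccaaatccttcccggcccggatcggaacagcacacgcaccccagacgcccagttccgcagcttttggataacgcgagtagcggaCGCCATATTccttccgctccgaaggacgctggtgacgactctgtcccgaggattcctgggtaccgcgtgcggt
Rpsa (chr9:120127566-120127765, plus strand): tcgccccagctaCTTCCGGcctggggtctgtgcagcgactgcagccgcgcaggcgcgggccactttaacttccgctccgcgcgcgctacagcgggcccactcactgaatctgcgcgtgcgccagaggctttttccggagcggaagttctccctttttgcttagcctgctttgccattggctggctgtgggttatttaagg
Rps27 and Rps28 each held AANATGGCG, on opposite strands, and Rps18 and Rpsa each held CCGGAAG. These genes were chosen as examples, and Rpl13, with 100% mutant H3K27ac coverage, held neither element, so no relation can be read from them.

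By role, the P stalk stood lowest for mutant H3K27ac. The stalk is built of Rplp0, which anchors it to the large subunit, and of dimers of Rplp1 and Rplp2, and it recruits the factors that drive translation. Over the 3 genes H3K27ac peaks covered 100% of the windows in the control list and 4.48% in the mutant list, and H3K4me3 peaks 90.8% and 94.6%. Rplp0 (chr5:115559467-115563729) had 100% and 8.22% for H3K27ac, with a widest peak of 16789 bp in the control list and 658 bp in the mutant list. Its H3K4me3 coverage was 85.2% and 100%. Rplp1 (chr9:61913283-61914510) had 100% and 5.38% for H3K27ac and 100% and 78.4% for H3K4me3. Rplp2 (chr7:141447651-141451359) had 100% and 0% for H3K27ac and 90.4% and 100% for H3K4me3. All 3 stalk genes were nearly bare of H3K27ac in the mutant list, and Rplp0 and Rplp2 had more H3K4me3 coverage than in control.

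The 29 small-subunit genes had 92.8% H3K27ac coverage in the control list and 53.5% in the mutant list, and 90% and 93.2% for H3K4me3. Rps6, the target of S6 kinase, had 100% and 73.9% for H3K27ac and 100% for H3K4me3 in both lists. Rps14, a protein of the small-subunit platform, had 100% and 78.6%, also with 100% H3K4me3 in both. Rps27a, translated as a fusion with ubiquitin, had 100% and 75.9%, again with 100% H3K4me3 in both. These 3 genes had most of their windows under H3K27ac in the mutant list too, in narrower peaks: the widest at Rps27a was 42217 bp in the control list and 6768 bp in the mutant list.

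Rps19, whose human counterpart is mutated in Diamond-Blackfan anaemia, had 100% and 56.9% for H3K27ac and 89.0% and 99.8% for H3K4me3. Rpsa, also known as the laminin receptor, had 100% and 87.5% for H3K27ac and 82.0% and 100% for H3K4me3. Both were lower for H3K27ac and higher for H3K4me3 in the mutant list. Rps24, another small-subunit gene, went the other way on both marks, with 51.4% and 63.7% for H3K27ac and 85.3% and 54.0% for H3K4me3.

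The 40 large-subunit genes had 87.3% H3K27ac coverage in the control list and 47.9% in the mutant list, and 87.1% and 86.5% for H3K4me3. Rpl3, which reaches toward the peptidyl transferase centre, had 91.3% and 27.5% for H3K27ac and 100% and 99.4% for H3K4me3. Rpl4, which lines the peptide exit tunnel, had 90.4% and 78.2% for H3K27ac and 100% and 67.3% for H3K4me3. Both genes thus had lower H3K27ac coverage in the mutant list, and the larger difference was in H3K27ac at Rpl3 and in H3K4me3 at Rpl4. Rpl10a, a protein of the mobile L1 stalk, had 65.8% and 2.73% for H3K27ac, the mutant peak being 179 bp wide, and 100% and 72.9% for H3K4me3.

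Rpl5 and Rpl11 form a particle with 5S ribosomal RNA and, when free of the ribosome, bind the p53 regulator Mdm2. Rpl5 had 90.6% and 67.8% for H3K27ac and 82.5% and 66.8% for H3K4me3. Rpl11 had 87.5% and 7.56% for H3K27ac and 69.9% and 100% for H3K4me3. The partners therefore differed in both marks, with Rpl11 nearly bare of H3K27ac and Rpl5 not. Rpl23, which also binds Mdm2, had 100% and 85.0% for H3K27ac and 100% H3K4me3 in both lists. Rpl26, which binds p53 mRNA, had 54.4% and 2.57% for H3K27ac, and 61.1% and 62.5% for H3K4me3.

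The 5 genes whose covered H3K27ac length was higher in the mutant list by the most bases were Rps24, Rpl19, Rpl35a, Rpl22 and Rpl17. Rpl19, which bridges the subunits, had 71.5% and 81.3%. Rpl35a had 63.2% and 73.1%, and Rpl22, which is not essential for translation, had 50% and 56.0%. Rpl17 had 79.2% and 83.4%. None of these differences reached the 25 points above, and at all 5 genes the widest peak was narrower in the mutant list, for example 11784 and 6050 bp at Rpl22.

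For H3K4me3 the covered length was higher by the most bases at Rps15a, Rpl31, Rpl12, Rpl11 and Rpl18. Rpl12, at the base of the stalk, had 60.9% H3K4me3 coverage in the control list and 100% in the mutant list, with 89.8% and 75.9% for H3K27ac. Rpl31, near the tunnel exit, had 47.6% and 79.2% for H3K4me3 and 55.9% and 3.45% for H3K27ac. All 5 genes had lower H3K27ac coverage in the mutant list. H3K4me3 coverage was lower by the most bases at Rpl39l, Rpl37, Rpl4, Rps24 and Rpl32l, 2 of which are copies described next.

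The 5 copies with symbols ending in l had the lowest H3K4me3 coverage in the mutant list among the role groups, 78.8% in control and 50.3% in mutant, with 70.3% and 21.2% for H3K27ac. Rpl3l, which replaces Rpl3 in striated muscle, had 100% and 6.65% for H3K27ac and 100% and 80.9% for H3K4me3. Rpl39l, a testis-enriched copy of Rpl39, had 98.6% and 24.3% for H3K27ac and 82.4% and 32.6% for H3K4me3. Rpl10l, an autosomal copy that serves for X-linked Rpl10 in the male germ line, had 67.9% and 49.8% for H3K27ac and 100% and 84.7% for H3K4me3. Unlike the family as a whole, all 5 copies had less H3K4me3 coverage in the mutant list. Rps27l, a p53-responsive copy of Rps27, had 22.6% and 26.8% for H3K27ac and 55.8% and 44.5% for H3K4me3, and so had the lowest control H3K27ac coverage of the 77 genes.

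Rpl32l (chr10:20208439-20209030) had 55.0% and 0% for H3K27ac and 52.2% and 0% for H3K4me3. It was the 1 gene without a peak of either mark in the mutant lists. Ribosomal protein genes have many near-identical processed copies in the genome, so reads from a copy and its parent can be placed at either, and the values at such copies are uncertain. Without the 5 copies the ratio of mutant to control H3K4me3 coverage was 1.01 in place of 0.992, so the direction of that small difference rested on them.

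Rpl3l, Rps2 and Rps29 were among the genes with the widest control H3K27ac peaks. Rpl3l and Rps2 are neighbours (chr17:24727826-24736143 and chr17:24718121-24721927) and shared a control peak of 58424 bp. In the mutant list Rps2, a protein near the mRNA entry, had 81.9% coverage and Rpl3l 6.65%. Under 1 control peak, Rps2 thus had high and Rpl3l low H3K27ac coverage in the mutant list. Rps29, a zinc-binding protein of the small subunit, had a control peak of 52464 bp and 100% coverage, and in the mutant list a widest peak of 7199 bp and 64.9%.

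Rpl13a, Rpl19 and Rpl3 were among the genes with the widest control H3K4me3 peaks. The widest H3K4me3 peak at Rpl13a, of the large subunit, was 65252 bp in the control list and 33085 bp in the mutant list, with 100% coverage in both. Its widest H3K27ac peak was 38244 and 5313 bp, with 79.5% and 63.0% coverage. At Rpl19 the widest H3K4me3 peak was 50511 and 40421 bp, and at Rpl3 38499 and 43731 bp. Rps29 had the highest ratio of widest H3K4me3 peaks, 6.54, with 4713 bp in the control list and 30808 bp in the mutant list.

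Inside 27 of the genes lay 56 small nucleolar RNA genes, the guides of ribosomal RNA modification. H3K27ac coverage of these hosts was 92.1% in the control list and 55.9% in the mutant list, and of the 50 other genes 86.9% and 41.4%. No mutant H3K27ac peak was found at 5 of 27 hosts and 7 of 50 others. A protein-coding gene faced the start of 8 of the 57 genes with a known start within 1 kb, as Rab13 does at Rps27 and Vps52 at Rps18. Of these 8 genes 3 (37.5%) had no mutant H3K27ac peak, and of the other 49 genes 7 (14.3%) had none. Of all genes with a control peak 22.6% had none, and the splits by small nucleolar RNA genes and facing genes were not made over all genes. Over the 77 genes the coverage in the control and mutant lists had a Pearson r of 0.238 and a Spearman rho of 0.185 for H3K27ac, and of 0.534 and 0.402 for H3K4me3, as a description over genes that are not independent.

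Related families were set beside the ribosomal protein genes. These were mitochondrial ribosomal proteins (78 genes), proteasome subunits (38) and translation initiation and elongation factors (52). H3K27ac coverage was 49.5% and 33.9% in the mitochondrial ribosomal set, 57.1% and 35.6% in the proteasome set and 62.6% and 38.8% in the translation factors, ratios of 0.685, 0.623 and 0.620 against 0.525 for the ribosomal protein genes. H3K4me3 coverage was 54.2% and 56.1%, 59.1% and 55.4%, and 62.0% and 60.1%. The ribosomal protein genes began higher on both marks than each of the 3 families and ended higher on both. H3K27ac was absent in the mutant list at 12 of 66 mitochondrial ribosomal genes, 6 of 33 proteasome genes and 7 of 50 translation factor genes with a control peak, near the share of the 77 genes.

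Genes with high control coverage were compared next, first those with at least 80% of their windows under both control marks. The classes share this lower limit only, and the median gene length was 3152 bp for the ribosomal protein genes and 9728 bp for the others. At the 52 ribosomal protein genes in this class H3K27ac coverage was 97.6% in the control list and 51.9% in the mutant list, and at 1236 other genes 94.8% and 60.2%. H3K4me3 coverage was 94.9% and 92.2% at the ribosomal protein genes and 93.5% and 80.1% at the others. In this class the ribosomal protein genes had lower mutant H3K27ac and higher mutant H3K4me3 coverage than the others. In the class chosen on control H3K4me3 alone (62 and 2360 genes), H3K27ac coverage was 92.6% and 69.8% in the control list and 51.6% and 51.4% in the mutant list, ratios of 0.557 and 0.736, with median differences of -35.2 and -13.2 points. Mutant H3K4me3 coverage was 90.8% and 78.6%. The ribosomal protein genes of that class thus differed more between the lists, from a higher control level to a like mutant level. Among the 60 ribosomal protein genes chosen on control H3K27ac alone, 15% had no mutant H3K27ac peak, against 8.32% of 2320 other genes. Their summed mutant coverage was 49.96% and 55.8%, with medians of 54.6% and 54.3%. The median differences between the lists were -41.96 and -37.2 points. Among the 1114 other genes of this class no longer than the longest ribosomal protein gene, 10.1% had no mutant peak, and the median mutant coverage was 58.6%. In the class chosen on both marks the medians of mutant H3K27ac coverage were 54.6% at the ribosomal protein genes and 63.7% at the others. None of these differences was tested.

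**Figure D4:**
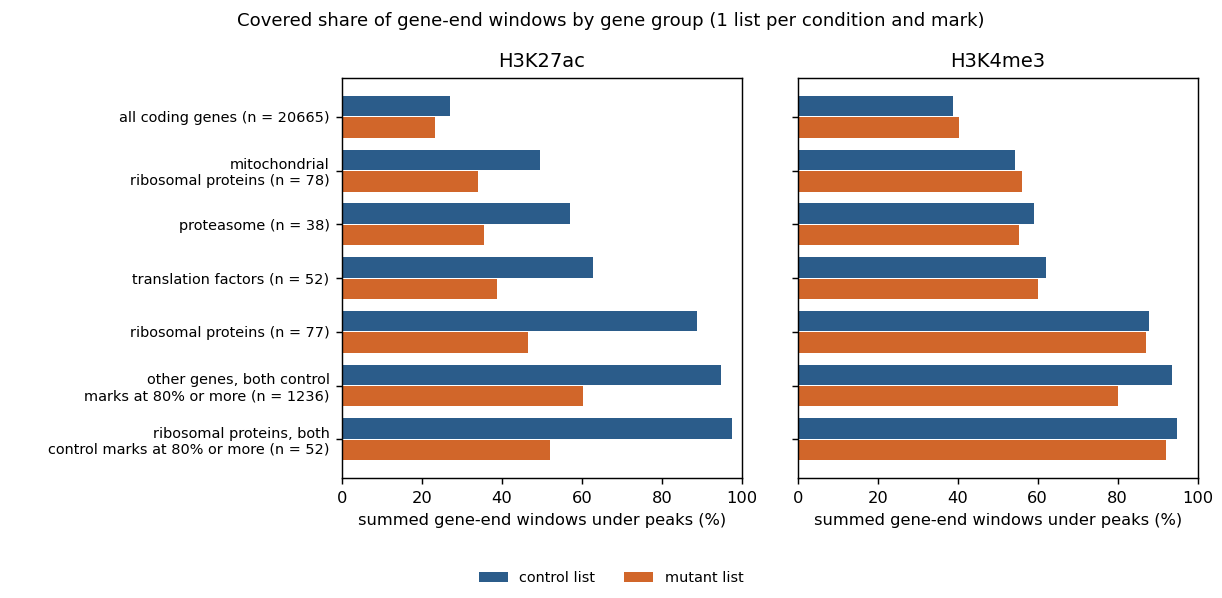
Summed share of gene-end windows under peaks (horizontal axis, percent) in 7 sets of genes, with 1 bar for the control list and 1 for the mutant list of each mark and no error bars because each bar rests on 1 list. For H3K27ac the ribosomal protein genes go from 88.8% to 46.6%, while for H3K4me3 they stay near 87%.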

How the data were processed

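Histone marks were measured by immunoprecipitation of micrococcal nuclease-digested chromatin, per the labels' protocols. CASAVA, Trimmomatic, Bowtie2, SAMtools, Picard and MACS2, deepTools and the build mm10 (GRCm38) are named in the submitters' processing notes. Their roles, versions, the peak threshold and whether libraries were pooled are not given in the sources used here. The 4 peak lists deposited by the authors hold only positions (chromosome, start and end), with no score, and 1 list stands for both libraries of a group. The input libraries and read counts were not analysed here, so depth and counting error are unknown.

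Groups came from sample titles. Gene ends came from a RefSeq table of GRCm38.p6, which gives no strand or exons, and start sites from RefSeq promoter sequences, the first listed start of each gene. Python 3.11.15, NumPy 2.4.6 and pandas 2.3.3 were used. For each gene the bases under peaks within 2 kb of either end, the widest peak and the presence of a peak were computed, and the code was tested on simulated data. Coverage was called different at 25 percentage points and width at 2-fold. No test was possible with 1 list per group. Named genes were those that lost a peak, the 5 with the largest rise, fall and width for each mark, and a list chosen by role. Some genes that met this rule are not reported here by name and are left out of the plot of single genes, but enter all counts and sums. Other genes appear in the text as examples chosen after their values were seen. The members and lists were chosen with earlier results of these data known. Alternatives covered windows, overlap, joining and width of peaks, list length and membership.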

Additional observations from a re-analysis of the deposited data

How the results depend on the processing

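Of 14 results under 13 alternatives, 170 values stayed within 1.5 times the count or 1.1 times the ratio, 11 moved further and 1 reversed. With the start site only (57 genes), 40 genes had a mutant H3K27ac peak and 40 both marks in place of 65, the H3K27ac coverage ratio was 0.449 in place of 0.525, and 2 genes lacked mutant H3K4me3 in place of 1; fewer genes and windows entered. With windows of 5 kb, 7 genes lacked mutant H3K27ac in place of 12, 0 lacked H3K4me3, and the ratio of median widest H3K4me3 peaks was 0.812 in place of 0.909. With windows of 1 kb, 1 gene gained H3K27ac. With common limits on width and joining, the ratio of widest H3K27ac peaks was 0.330 in place of 0.369, and with peaks less than 1 kb apart merged that of H3K4me3 was 0.776. Without the like paralogs the H3K4me3 coverage ratio reversed to 1.01 and 0 genes lost H3K4me3, since Rpl32l was left out. Otherwise the cause was not tested. Counting genes under a shared control peak once, or adding Rps3a1, were chosen after seeing the data. A stricter score was replaced by the wider 50% of each list, as the lists hold no score. No paired analysis was possible because both libraries of a group share 1 peak list, and no library could be left out. Depth limits could not be stated without counts.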

Other observations

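The X-linked ribosomal protein genes lay outside the rule and gave a like pattern of values. Rps4x had 100% H3K27ac coverage in the control list and 60.7% in the mutant list, with widest peaks of 60319 and 8679 bp, and H3K4me3 coverage of 100% and 90.8%. Rpl10 had 100% and 68.6% for H3K27ac and 100% for H3K4me3 in both lists. Rpl39, the parent of Rpl39l, had 100% and 57.7% for H3K27ac and 100% and 79.5% for H3K4me3. Rpl36a had 87.3% and 0% for H3K27ac, and 100% and 87.3% for H3K4me3. H3K27ac coverage was lower in the mutant list at all 4 genes.

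At ribosomal protein pseudogenes the summed H3K27ac coverage was not lower in the mutant list. Of 281 such loci 33.1% had an H3K27ac peak in the control list and 43.1% in the mutant list, with 16.6% and 17.0% of the windows covered. Their median coverage was 0% in both lists, so most of these loci had no room for lower values, unlike the genes. Over all 9319 pseudogenes the shares were 28.2% and 33.3%. For H3K4me3 43.8% and 40.6% of the ribosomal protein pseudogenes were marked, against 32.1% and 32.0% of all. Reads of near-identical copies and parents can be placed at either, and this was not tested.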
